A study of Rattus norvegicus with 10 samples.

Results

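The potassium channel genes described here are all genes whose symbol starts with Kcn. They were read from every probe set (a group of short probes for 1 transcript, giving 1 signal per array) that the array annotation pairs with exactly 1 gene symbol of that form. The rule found 108 probe sets for 73 genes, out of 15866 probe sets and 10411 named genes. Abdominal aortae of inbred rats of 2 strains, BN (Brown Norway) and LOU, were measured on 10 Affymetrix arrays, 5 per strain. The rats were untreated, the age given with every array was 5 weeks (the husbandry notes allow up to 18 weeks), and no allele besides the strain was named. The extraction notes speak of thoracic as well as abdominal aorta, while tissue and design name the abdominal part alone. The question behind the series is the inheritance of unusual arterial and kidney traits of the BN rat. Whether each array came from its own rat was not stated, so the p-values measure only the spread between these arrays. The tissue was whole vessel, in which fewer cells of a type and less RNA per cell cannot be told apart.

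Potassium channels let potassium ions leave the cell and hold the membrane potential negative. In arterial smooth muscle an open potassium channel closes voltage-gated calcium channels and relaxes the vessel. The main channels of the vessel wall are the large-conductance calcium-activated (BK) channel, the ATP-sensitive channel, voltage-gated (Kv) channels including Kv7, and inward rectifiers. Endothelial cells add channels of small and intermediate conductance. Pore subunits form the conducting path, and beta subunits and interacting proteins change how the pore opens.

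Signals were linear and scaled by the authors to a common mean, and the array median ran from 97.4 to 105.0. Background was taken on each array as the 95th percentile over 45 probe sets for bacterial controls, which was lowest on BN array 5 (21.2) and highest on BN array 1 (49.2). The ratio of 3′ to 5′ actin probe sets, a measure of RNA integrity, was 3.47 to 5.39 in BN and 3.85 to 4.59 in LOU. Of 10 smooth muscle markers, 9 had a probe set and each was above background on at least 1 array. A probe set is called measured below where its mean log2 signal over the 10 arrays exceeded the mean log2 background, which corresponds to a signal of 31.7. Signals of different probe sets depend on probe binding as well as on RNA, so no level is set against that of another gene.

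Of the 108 potassium channel probe sets, 56 were measured (51.9%), against 76.4% of all probe sets. They stood for 45 of the 73 genes. On all 10 arrays 29 probe sets of 27 genes were above background, 26.9% against 63% of all probe sets. A further 55 were above background on 1 to 9 arrays. On no array were 24 above background, 22.2% against 10.1% of all probe sets. The probe sets nearest to the measured level were Kcnn4 just inside, with a geometric mean signal of 31.9, and Kcnj10 just outside, at 31.1. In the BK group, the KCNQ group and the sodium-activated channel Kcnt1, every gene had a probe set above background on all 10 arrays, and in no other family was this so.

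**Figure D1:**
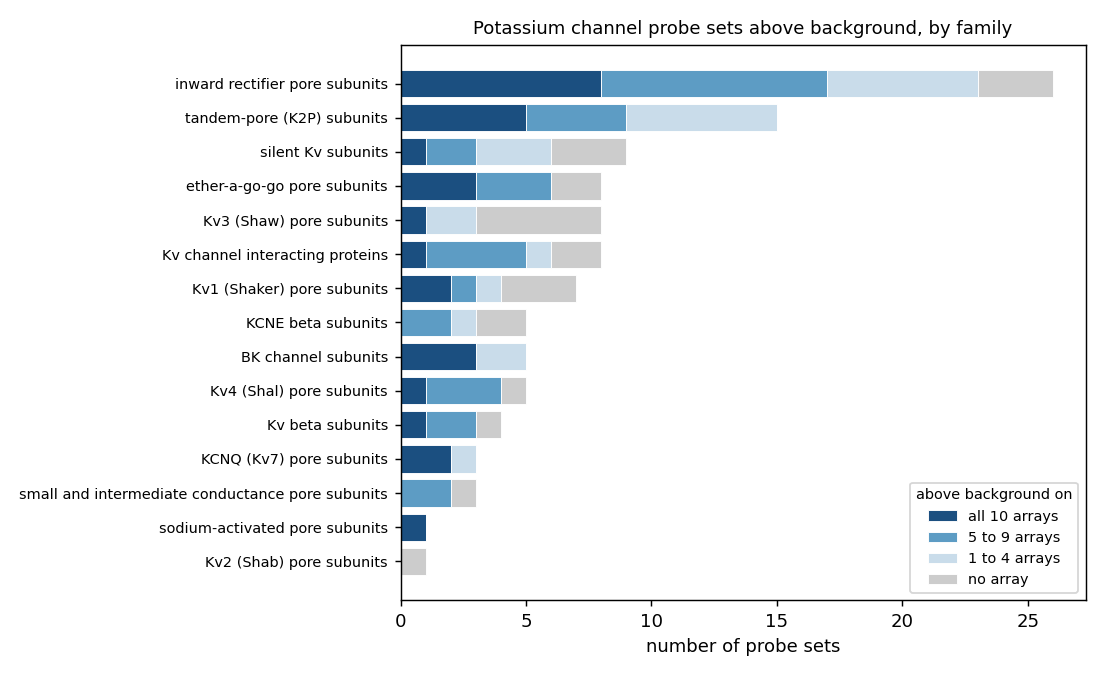
Number of potassium channel probe sets in each family (horizontal bars, x axis), split by how many of the 10 arrays gave a signal above background. The inward rectifiers form the largest family with 26 probe sets, of which 8 were above background on all 10 arrays, and the single Kv2 probe set was above background on none.

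The strain comparison called no potassium channel. By limma with Benjamini-Hochberg adjustment over all probe sets, 0 of the 108 probe sets passed an adjusted p of 0.05, where 0.788% of all 15866 probe sets did, 0.246% as higher and 0.542% as lower in BN. Probe sets with an unadjusted p under 0.05 numbered 8 (7.41%), 4 higher and 4 lower in BN, against 13.3% of all probe sets. Among measured probe sets the share was 5 of 56 (8.93%), against 14.4%. The smallest adjusted p, 0.138, belonged to Kcnq1. No member separated the strains without overlap, as 4.18% of all probe sets did. The median log2 difference (BN minus LOU) was 0.04 over the 108 and −0.03 over all probe sets. Among the 56 measured probe sets 30 differences were positive and 26 negative, between −1.19 and 0.70. For 37 of these 56 the 95% interval of the difference lay within 2-fold in either direction, and for 16 it lay within 1.5-fold. Wider intervals leave room for larger differences that 5 arrays per strain could not settle.

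**Figure D2:**
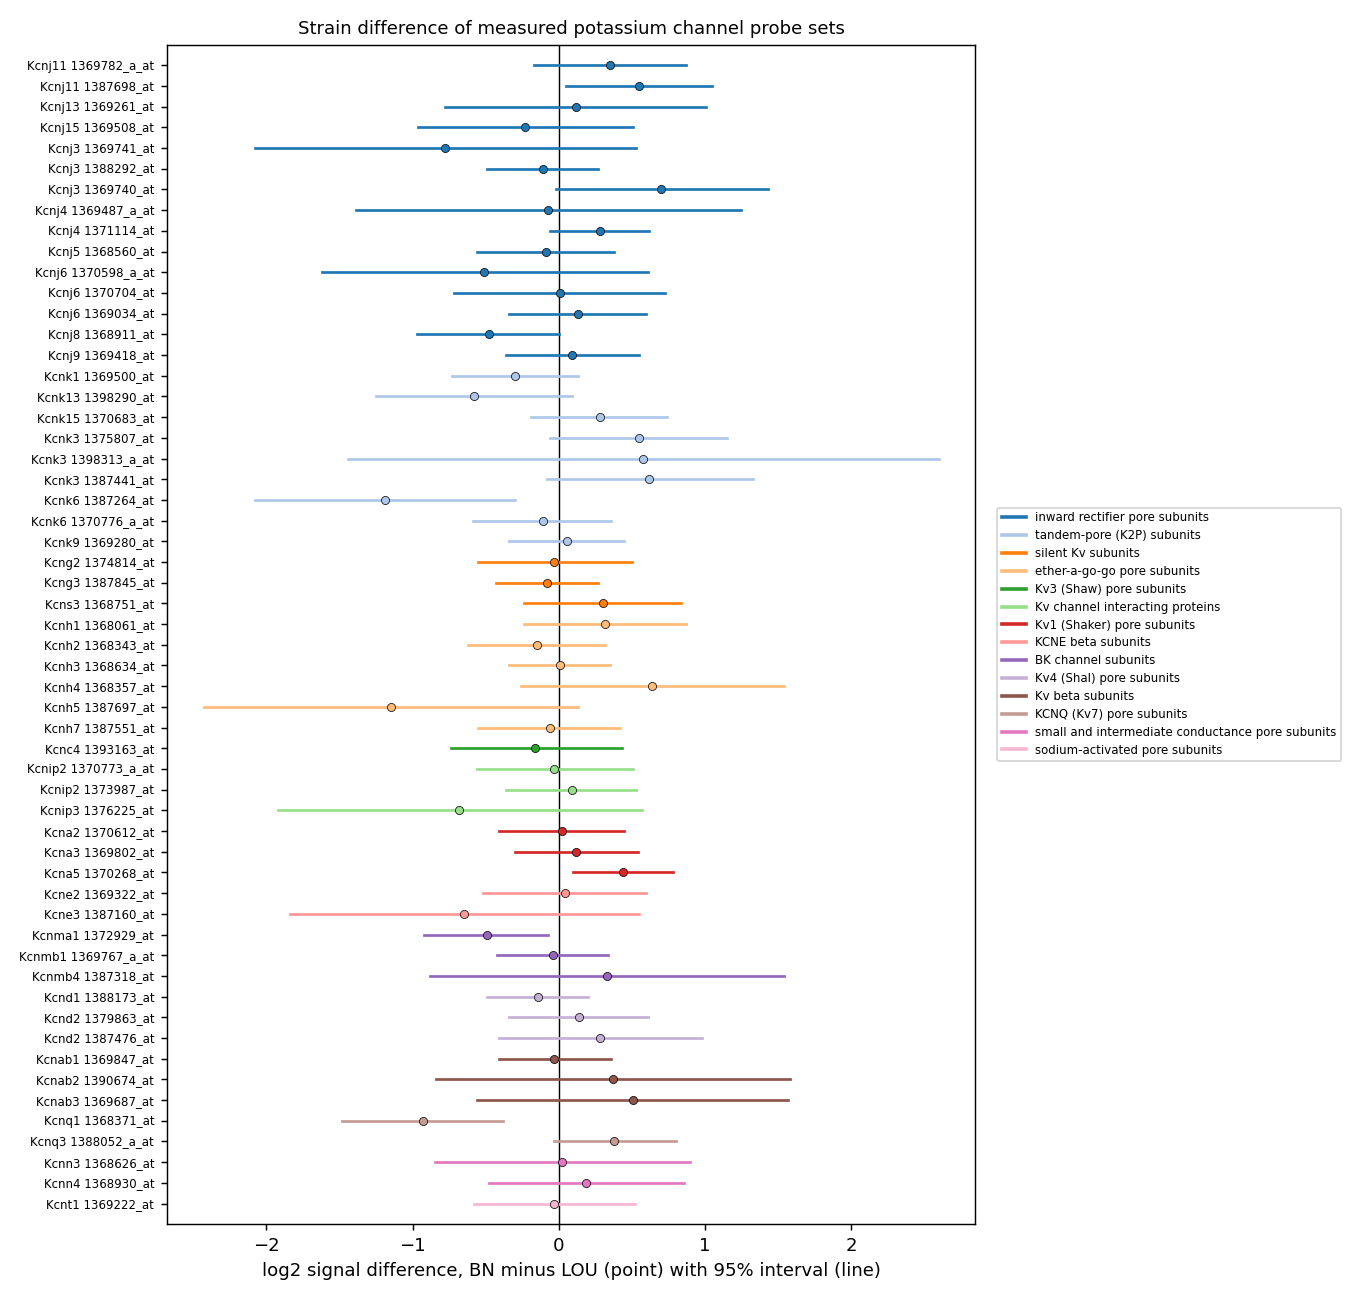
Log2 signal difference between strains (x axis, BN minus LOU) for the 56 measured probe sets, grouped by channel family in colour. Points are fitted differences and lines their 95% intervals. Intervals that leave out 0, such as that of Kcnq1 (−1.48 to −0.38), are not adjusted for the number of probe sets.

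The BK channel is built from the pore subunit Kcnma1 and a beta subunit, in smooth muscle mainly Kcnmb1, which raises its calcium sensitivity. Kcnmb1 gave signals of 450.1, 428.3, 399.2, 492.6 and 693.0 on BN arrays 1 to 5. The LOU signals were 403.0, 484.4, 574.0, 487.7 and 553.5. The strains overlapped almost fully, with the highest value on BN array 5 and the lowest on BN array 3. The means were 492.6 ± 117.1 (SD, n = 5) in BN and 500.5 ± 67.3 in LOU. The log2 difference of −0.04 had a 95% interval of −0.42 to 0.34, which leaves out differences beyond 0.75-fold and 1.27-fold (limma adjusted p = 0.945). Its sign was not settled, since centring each array on its median gave 0.01.

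Kcnma1 signals were 321.4, 278.1, 310.4, 444.5 and 453.5 in BN. In LOU they were 360.1, 527.2, 498.9, 592.4 and 551.7. Of the 5 LOU arrays 4 lay above every BN array, and LOU array 1 lay inside the BN range. The means of 361.6 ± 81.4 (SD, n = 5) and 506.1 ± 88.5 gave a log2 difference of −0.49 (SE 0.19, limma adjusted p = 0.301). The pore subunit was thus 1.41-fold lower in BN without passing the test. Whether Kcnma1 and Kcnmb1 differed from each other in their strain difference was not tested. The other Kcnma1 probe sets were not measured, with 1 and 4 of the 10 arrays above background, and gave log2 differences of 0.09 and −0.17.

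The beta subunit Kcnmb4, best known from brain, had BN signals of 68.4, 136.3, 379.3, 41.5 and 78.3. Its LOU signals were 97.5, 83.0, 83.0, 42.4 and 128.8. BN array 3 alone gave the BN mean of 140.8 ± 137.8 (SD, n = 5) its height over the LOU mean of 86.9 ± 31.1. The log2 difference was 0.33 with all arrays and −0.14 without BN array 3, with 0.66 without BN array 4 and 0.09 without LOU array 4. The highest neuronal marker mean, described below, was also on BN array 3.

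The stretch before the annotated start site is shown for 3 channel genes named for this group, Kcnmb1, Kcnma1 and Kcnj8, as the region where transcription of each begins. The sequences are RefSeq's for GRCr8, 250 bases on the gene's own strand, at chr10:19061849-19062098 (plus strand), chr15:351675-351924 (plus) and chr4:177246549-177246798 (minus). Capitals mark GGGCGG, the GC box, on either strand.
Kcnmb1: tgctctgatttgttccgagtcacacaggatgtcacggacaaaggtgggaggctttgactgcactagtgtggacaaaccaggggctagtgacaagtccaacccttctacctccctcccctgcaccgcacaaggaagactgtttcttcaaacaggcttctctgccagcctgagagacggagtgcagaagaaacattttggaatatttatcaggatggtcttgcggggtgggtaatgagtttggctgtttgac
Kcnma1: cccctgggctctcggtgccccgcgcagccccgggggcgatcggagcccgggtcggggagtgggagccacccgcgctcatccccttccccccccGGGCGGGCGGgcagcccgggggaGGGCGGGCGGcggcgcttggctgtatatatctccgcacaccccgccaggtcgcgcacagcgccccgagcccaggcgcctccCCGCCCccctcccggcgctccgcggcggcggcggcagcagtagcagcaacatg
Kcnj8: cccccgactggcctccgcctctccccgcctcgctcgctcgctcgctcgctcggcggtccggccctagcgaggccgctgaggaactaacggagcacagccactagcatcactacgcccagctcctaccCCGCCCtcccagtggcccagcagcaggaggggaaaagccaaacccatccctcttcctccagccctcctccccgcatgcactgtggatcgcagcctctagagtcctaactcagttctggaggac
The Kcnma1 stretch held 5 GC box matches, of which 4 overlap in pairs, Kcnj8 held 1 and Kcnmb1 held 0. Of the 73 genes, 50 had such a sequence. A GC box stood in 28 of these 50 (56%), against 30.5% of 33469 promoter sequences of the same length. TATAAA stood in 2 of the 50 (4%), against 12.9%, and the CArG box, bound by serum response factor in smooth muscle genes, in 0, against 1.5%. These are matches of letters in a short window, given as a description, and the arrays hold no measurement of binding.

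ATP-sensitive channels of vascular smooth muscle pair the pore subunit Kcnj8 (Kir6.1) with the sulphonylurea receptor Abcc9. Kcnj8 signals were 267.1, 245.4, 137.1, 144.6 and 219.8 in BN. They were 246.5, 348.5, 242.0, 294.7 and 249.0 in LOU. BN arrays 3, 4 and 5 lay under every LOU array, and BN arrays 1 and 2 lay inside the LOU range. The means were 202.8 ± 59.0 (SD, n = 5) and 276.1 ± 45.7, a log2 difference of −0.48 (SE 0.22, limma adjusted p = 0.378).

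Abcc9, which lies next to Kcnj8 in the RefSeq gene order, was read by 3 probe sets with log2 differences of −0.24, −0.35 and −0.63. None passed (limma adjusted p = 0.597, 0.481 and 0.231). All 3 therefore had the sign of Kcnj8. The other ATP-sensitive pair had the opposite sign. Kcnj11 (Kir6.2), the pore of pancreas and heart, chosen here after its values were seen, gave 75.1 ± 21.3 (SD, n = 5) in BN and 50.9 ± 12.5 in LOU on 1 probe set (log2 0.55, limma adjusted p = 0.326). Its other measured probe set gave 0.35, and its neighbour and partner Abcc8 0.12.

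The other inward rectifiers did not pass either. The classical rectifier Kcnj2 (Kir2.1) was not measured, with BN signals of 52.7, 54.2, 22.1, 22.1 and 43.8 and LOU signals of 24.3, 9.0, 33.3, 26.3 and 48.1. Of those, 3 BN and 2 LOU arrays were above background, and the log2 difference of 0.55 (limma adjusted p = 0.645) was 0.18 without LOU array 2. Kcnj3, a G protein-gated rectifier of heart atrium and brain, had 3 measured probe sets that went different ways. One had BN signals of 99.7, 95.9, 94.3, 92.4 and 74.2 and LOU signals of 70.8, 71.8, 22.3, 85.3 and 55.7 (log2 0.70, limma adjusted p = 0.393). A second had 100, 83.5, 60.6, 9.8 and 77.4 in BN and 85.1, 77.0, 71.2, 74.7 and 163.1 in LOU (log2 −0.78, limma adjusted p = 0.611). In the first, 4 BN arrays lay above every LOU array, while in the second the BN range held 4 of the 5 LOU arrays. The first difference was 0.37 without LOU array 3, and the second −0.18 without BN array 4. The remaining Kcnj3 probe set differed by −0.11. Kcnj4, Kcnj5, Kcnj6, Kcnj9, Kcnj13 and Kcnj15 were measured on at least 1 probe set, with differences between −0.51 and 0.28. Kcnj1, Kcnj10, Kcnj12, Kcnj14 and Kcnj16 were not measured. In all, 15 of the 26 inward rectifier probe sets were measured, with a median difference of 0.01.

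Kv1 channels open on depolarisation and limit arterial constriction, and Kcna5 (Kv1.5) is their best studied member in smooth muscle. Kcna5 signals were 141.6, 198.6, 173.5, 210.9 and 205.9 in BN. In LOU they were 131.4, 170.9, 117.6, 132.0 and 133.1. Of the BN arrays 4 lay above every LOU array, and BN array 1 lay under LOU array 2. The means of 186.1 ± 28.7 (SD, n = 5) and 137.0 ± 20.0 gave a log2 difference of 0.44 (SE 0.15, limma adjusted p = 0.25), a 1.35-fold higher level in BN that did not pass the test. Kcna5 had a within-strain SD of 0.22 on the log2 scale, among the smallest of the 29 probe sets above background on all arrays.

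Kcna2 (Kv1.2) gave 72.0, 55.4, 59.1, 38.3 and 62.8 in BN. Its LOU signals of 62.7, 66.4, 45.0, 61.7 and 45.7 lay wholly within that range, and the log2 difference was 0.02 (95% interval −0.41 to 0.45, limma adjusted p = 0.975), −0.01 with array weights. Kcna3, a channel also of T cells, was measured at 39.5 ± 6.12 (SD, n = 5) and 36.7 ± 8.31. Kcna1, Kcna4 and Kcna6 were not measured. Among the beta subunits that ride on Kv1 pores, Kcnab1 gave 133.5, 135.8, 172.7, 115.9 and 176.0 in BN and 119.8, 127.4, 144.1, 175.5 and 180.6 in LOU. Its difference was −0.03 (95% interval −0.41 to 0.36), and it became 0.03 on centring the arrays on their medians. Kcnab2 and Kcnab3 differed by 0.37 and 0.51 on their measured probe sets, with limma adjusted p-values of 0.813 and 0.689.

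**Figure D3:**
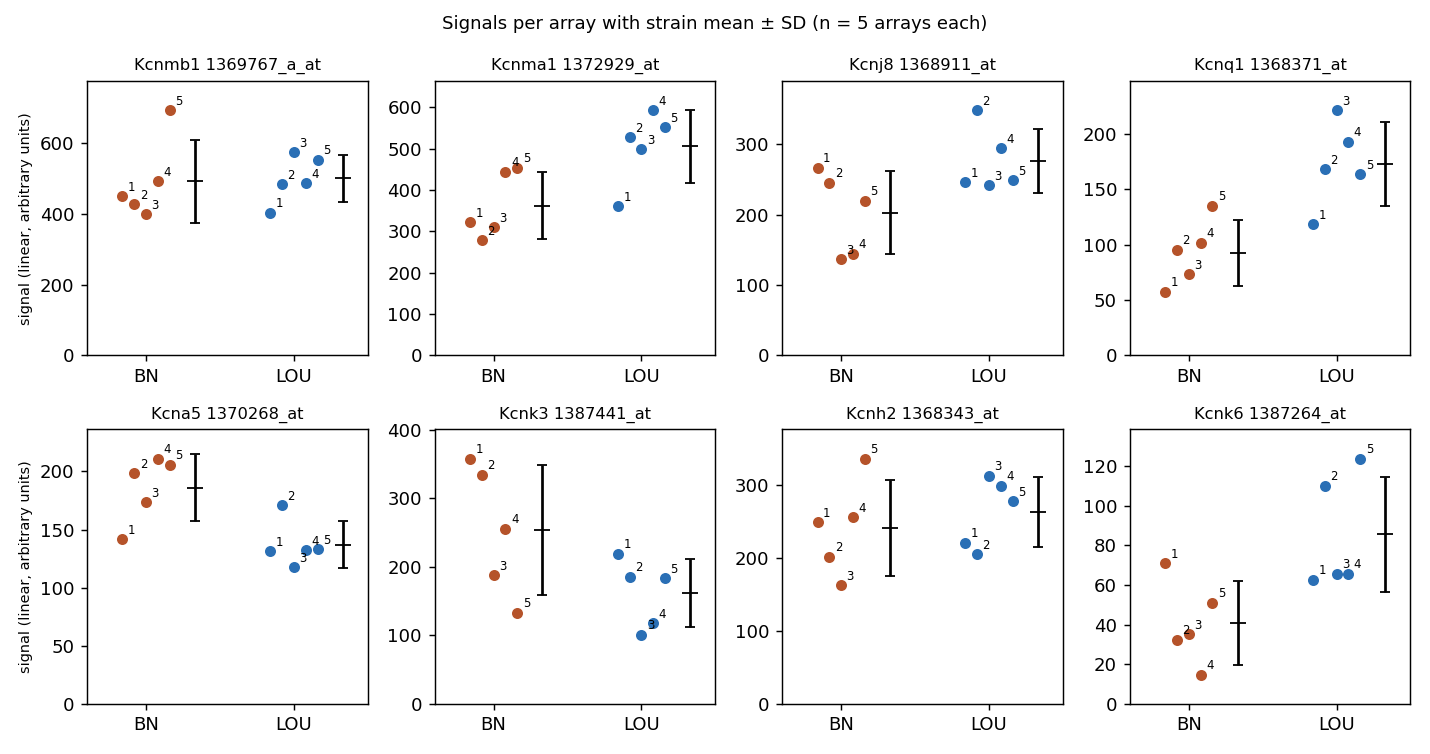
Linear signals (y axis, starting at 0) of 8 probe sets on the 5 BN and 5 LOU arrays, each point labelled with its replicate number, with the strain mean ± SD in black beside it. Kcnmb1 and Kcnh2 overlap widely, while 4 of 5 BN arrays lie under every LOU array for Kcnq1 and above every LOU array for Kcna5.

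Kv2, Kv3 and Kv4 pores were mostly near or under background. Kcnb2 (Kv2.2) was above background on no array. Of the 8 Kv3 probe sets only that of Kcnc4 was measured, with BN signals from 65.1 to 157.8 and LOU signals from 64.3 to 115.5 (log2 −0.16). Among Kv4 pores, which carry fast transient currents, Kcnd1 gave 95.7 ± 21.0 (SD, n = 5) and 103.9 ± 4.44, and the 2 Kcnd2 probe sets differed by 0.14 and 0.28. Kcnd3 was not measured. One of its probe sets had BN signals of 66.3, 35.8, 53.3, 52.0 and 9.2 and LOU signals of 29.5, 20.2, 38.9, 7.2 and 37.5, with 3 arrays of each strain above background. Its log2 difference of 0.65 (limma adjusted p = 0.683) was 0.43 without BN array 1, 1.15 without BN array 5 and 0.24 without LOU array 4. The other, at 16.2, 24.0, 2.7, 10.0 and 15.7 in BN and 11.7, 6.0, 10.7, 13.9 and 13.3 in LOU, was above background on none.

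Silent Kv subunits form no channel alone but modify Kv2 pores. Kcng2, Kcng3 and Kcns3 were measured and differed by −0.03, −0.08 and 0.30. Kcns1, Kcns2, Kcnv1 and Kcnv2 were not measured. Kv channel interacting proteins are calcium sensors bound to Kv4. Kcnip3 gave 64.0, 140.7, 18.7, 26.6 and 115.0 in BN and 147.6, 94.2, 51.6, 86.0 and 86.9 in LOU. BN arrays 3 and 4 lay under every LOU array, and the other BN arrays lay inside the LOU range (log2 −0.68, limma adjusted p = 0.645). The difference was −0.29 without BN array 3, −0.41 without BN array 4 and −0.10 without BN array 3 and LOU array 1. Kcnip2 was measured on 2 probe sets, at −0.03 and 0.09, and Kcnip1 was not measured. Kcnip4, chosen here after its values were seen, was above background on all 5 LOU arrays but on 1 BN array, and was not measured by the mean (log2 −1.30, limma adjusted p = 0.332).

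Kv7 channels carry a current that opens near the resting potential, and Kcnq1 (Kv7.1) is their member of heart and arterial smooth muscle. Kcnq1 showed the smallest p of all potassium channel probe sets. Its signals were 57.3, 95.5, 73.5, 101.8 and 135.0 in BN and 118.2, 168.3, 221.3, 193.1 and 163.6 in LOU. Of the BN arrays 4 lay under every LOU array, and BN array 5 lay above LOU array 1. The means were 92.6 ± 29.6 (SD, n = 5) and 172.9 ± 38.2, a 1.91-fold lower level in BN (log2 −0.93, SE 0.25, limma adjusted p = 0.138). The difference kept its sign in each of 20 alternative settings, from −1.08 to −0.77, and passed in none of them. The adjusted p ran from 0.0547, with the dimmest 40% of probe sets left out, to 0.289.

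The neuronal Kv7 subunit Kcnq3 went the other way on its measured probe set, at 79.9 ± 13.6 (SD, n = 5) in BN and 61.8 ± 13.4 in LOU (log2 0.38, limma adjusted p = 0.414). KCNE proteins are small partners of Kcnq1 and other pores. Kcne3 gave 44.5, 11.2, 107.4, 40.0 and 60.7 in BN and 83.1, 93.8, 87.4, 44.7 and 40.0 in LOU. BN array 3 was the highest of all and BN array 2 the lowest (log2 −0.65, limma adjusted p = 0.648). The difference was −0.17 without BN array 2 and −0.98 without BN array 3. Kcne2 differed by 0.04, and Kcne1, the partner of Kcnq1 in the heart, was not measured.

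Among ether-a-go-go channels, Kcnh2 (ERG) gave 248.6, 201.3, 162.3, 256.0 and 335.7 in BN. In LOU it gave 220.5, 205.1, 312.4, 298.7 and 277.7. The strains overlapped, and the difference was −0.15 (95% interval −0.62 to 0.32, limma adjusted p = 0.8). Kcnh3, a channel of forebrain neurons, was at 256.8, 230.3, 161.9, 203.0 and 228.0 in BN and 186.1, 189.6, 210.5, 245.9 and 238.4 in LOU. Its difference of 0.01 (95% interval −0.34 to 0.35) became −0.0032 with array weights. Kcnh4, also of brain, gave 49.1, 71.9, 69.1, 57.4 and 85.0 in BN, all inside the spread of the LOU signals of 50.9, 16.9, 90.1, 28.8 and 58.0 (log2 0.64, limma adjusted p = 0.539). Kcnh5 had the opposite sign, at 35.5, 18.2, 84.1, 7.9 and 61.3 in BN and 48.0, 81.8, 80.9, 83.4 and 53.5 in LOU (log2 −1.15, limma adjusted p = 0.435). BN array 3 was the highest of the 10 and BN array 4 the lowest. Without BN array 4 the Kcnh5 difference was −0.66, and without LOU array 2 that of Kcnh4 was 0.31. Kcnh1 and Kcnh7 differed by 0.32 and −0.06, and Kcnh6 and Kcnh8 were not measured.

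Tandem-pore (K2P) channels are background leak channels. Kcnk3 (TASK-1), an acid-sensitive leak channel of vascular smooth muscle that brown fat cells also express, had 3 measured probe sets with differences of 0.62, 0.58 and 0.55. The first had BN signals of 357.4, 334.0, 187.3, 255.6 and 132.8 and LOU signals of 218.9, 185.1, 100.7, 117.6 and 183.2. BN arrays 1, 2 and 4 lay above every LOU array, and BN array 5 was among the lowest. The second, above background on 3 arrays of each strain, gave 146.7, 149.3, 19.2, 41.9 and 14.7 against 64.7, 49.1, 32.6, 4.6 and 72.5. The third gave 130.7, 131.4, 82.3, 74.7 and 52.2 against 75.5, 61.5, 67.7, 62.4 and 42.3. BN arrays 1 and 2 were the highest of the 10 on all 3 probe sets. None passed (limma adjusted p = 0.442, 0.824 and 0.436). Leaving out 1 array moved the second probe set between −0.12 (LOU array 4) and 1.01 (BN array 5), with 0.18 without BN array 1, 0.17 without BN array 2, 0.91 without BN array 3 and 0.87 without LOU array 5, while the others kept their sign whichever array was left out.

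Kcnk6 (TWIK-2) had the largest difference of the measured probe sets on 1 probe set and almost none on the other. The first gave 71.0, 32.4, 35.1, 14.6 and 51.1 in BN, with 2 arrays above background, and 62.6, 110.3, 65.8, 65.7 and 123.8 in LOU. Of the BN arrays 4 lay under every LOU array (log2 −1.19, SE 0.40, limma adjusted p = 0.231). The other gave 252.0, 184.3, 153.7, 109.2 and 216.5 in BN and 161.0, 208.1, 203.0, 183.0 and 201.5 in LOU, with BN values on both sides of LOU (log2 −0.11, limma adjusted p = 0.856, and 0.06 without BN array 4). Kcnk1, Kcnk9, Kcnk13 and Kcnk15 were measured, at −0.30, 0.06, −0.58 and 0.28. Kcnk2 (TREK-1), Kcnk4, Kcnk5, Kcnk10 and Kcnk12 were not measured.

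Endothelial calcium-activated channels were close to background. Kcnn3 (SK3) gave 61.7, 61.8, 49.7, 36.7 and 30.4 in BN and 118.1, 32.5, 29.6, 31.3 and 55.0 in LOU. LOU array 1 stood above all others. The difference was 0.02 with all arrays and 0.37 without LOU array 1 (limma adjusted p = 0.987 with all), and it turned negative without some other single arrays. Kcnn4, the intermediate-conductance channel of endothelium and lymphocytes, gave 25.9, 38.3, 41.9, 37.8 and 29.5 in BN and 33.3, 30.4, 41.2, 13.7 and 41.8 in LOU (log2 0.19, limma adjusted p = 0.826, and −0.09 without LOU array 4). Kcnn1 was not measured. The sodium-activated Kcnt1 was at 91.1 ± 26.6 (SD, n = 5) and 91.9 ± 21.9.

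Marker genes of other cell types also differed between arrays. Brown fat markers, 7 of 10 with a probe set and all 7 with a positive difference, had array means (log2, each gene centred) of 1.89, 2.03, 0.11, 0.52 and −1.37 on BN arrays 1 to 5. On LOU arrays 1 to 5 they were 0.13, −0.10, −1.50, −1.77 and 0.04. Their summed signal was 2333 to 21319 in BN and 1342 to 10683 in LOU, and each was above background on at least 1 array. The 3 arrays with the lowest means, BN array 5 and LOU arrays 3 and 4, were the 3 lowest in Kcnk3 on its first probe set. BN arrays 1, 2 and 4 had the highest means and the highest Kcnk3 on that probe set. At means between −0.10 and 0.13, BN array 3 gave 187.3 and LOU arrays 1, 2 and 5 gave 218.9, 185.1 and 183.2 on it. The other Kcnk3 probe sets ordered the arrays differently. On the third the lowest were LOU array 5 (42.3), BN array 5 (52.2) and LOU array 2 (61.5). BN array 3 gave 82.3 there, against 75.5, 61.5 and 42.3 on LOU arrays 1, 2 and 5. On the second it gave 19.2, against 64.7, 49.1 and 72.5. White fat markers, 7 of 10 with a probe set, had 5 positive and 2 negative differences (median 0.10), with Lep above background on no array. Their means were also lowest on BN array 5 (−0.93) and LOU arrays 3 and 4 (−0.56 and −0.51). They were highest on LOU array 1 (0.70) and BN arrays 2 and 1 (0.69 and 0.56). The part of fat tissue, brown or white, in the Kcnk3 difference was not tested.

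Neuronal markers, all 12 with a probe set and 11 with a positive difference, had a mean of 4.01 on BN array 3 and between −1.73 and 1.40 on the other 9. Their sum was 695.6 to 18164 in BN and 357.2 to 2448 in LOU. BN array 3 held the highest signal of Kcnmb4, Kcne3 and Kcnh5. Among the other 9 arrays, LOU array 1, next in neuronal markers, gave a Kcnmb4 signal of 97.5 and BN array 2, at −0.30, gave 136.3. LOU array 4, lowest in these markers (−1.73), gave 42.4, and BN array 4, at −0.53, gave 41.5. BN array 3 also had the highest actin ratio, 5.39. It held the highest signal of 12 of the 56 measured probe sets (21.4%, against 11.6% of all measured probe sets) and the lowest of 7. BN arrays 1 and 2, without that neuronal rise, held the highest signal of 10 each (17.9%, against 9.33% and 11.4%). Lymphocyte markers, 7 of 10 with a probe set and 5 with a negative difference, had a mean of 1.60 on LOU array 1 and −0.44 to 0.01 elsewhere. Their sum was 287.7 to 342.9 in BN and 294.9 to 828.2 in LOU. Macrophage markers, 7 of 10 with a probe set and all 7 with a negative difference, had their highest mean there too, 0.98. LOU array 1 was the highest in Kcnn3. BN array 1, lowest in lymphocyte markers (−0.44), gave a Kcnn3 signal of 61.7, among the next highest. Of the channels known from lymphocytes, Kcna3 was at its lowest on LOU array 1 (26.4) and Kcnn4 was in mid-range (33.3). Both were close to the background of that array (26.2). The part of nerve and immune cells in these signals was not tested. Without BN array 3 and LOU array 1, 0 of the 108 probe sets passed as before.

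**Figure D4:**
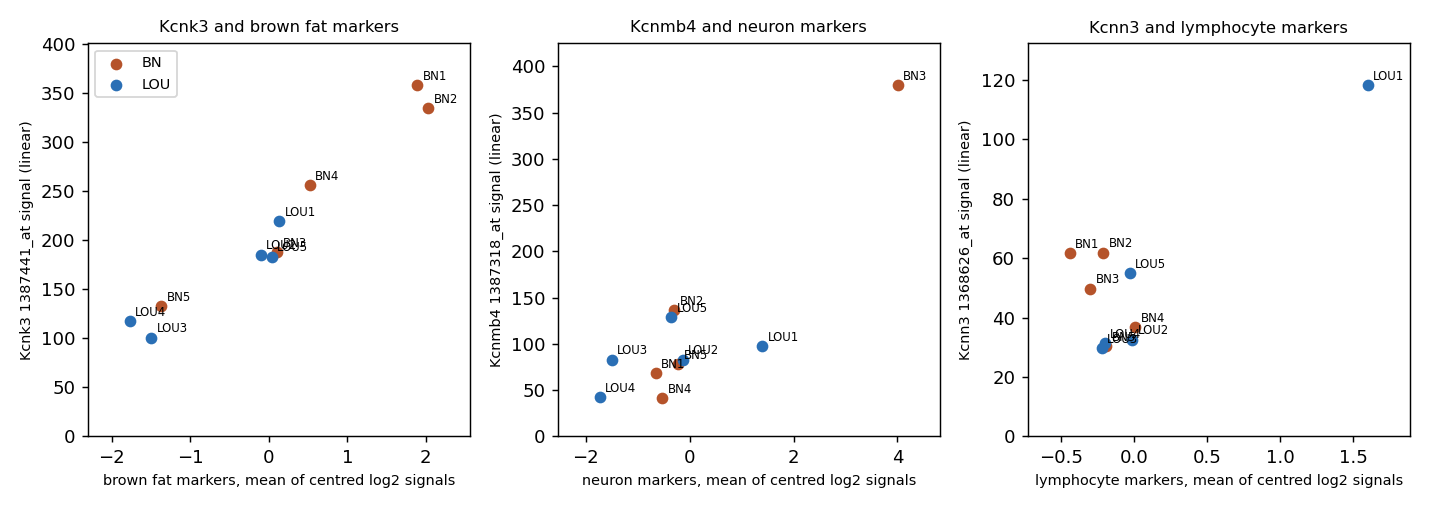
Linear signal of Kcnk3, Kcnmb4 and Kcnn3 (y axes) against the mean centred log2 signal of brown fat, neuronal and lymphocyte markers (x axes) on the 10 arrays, BN in brown and LOU in blue. BN arrays 1 and 2 are highest in both brown fat markers and Kcnk3, BN array 3 stands apart in the middle panel and LOU array 1 in the right panel.

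Other lists separated the strains more fully. Fibroblast markers, 9 of 10 with a probe set and 8 with a negative difference (median −0.78), had array means of −0.57 to −0.10 in BN and 0.03 to 0.78 in LOU, without overlap. Their summed signal was 21256 to 30608 in BN and 28232 to 39274 in LOU. The matrix proteoglycan Ogn was lower in BN on 2 of its 4 probe sets, the brightest at log2 −1.53 (limma adjusted p = 0.0171). Schwann cell markers, 8 of 10 with a probe set and all 8 with a positive difference (median 0.77), had means of −0.02 to 0.80 in BN and −0.73 to −0.21 in LOU, also without overlap. Their sum was 2930 to 5302 in BN and 2306 to 2983 in LOU, with Gjb1 above background on no array. The myelin gene Mbp was higher in BN on its brightest probe set (log2 1.73, limma adjusted p = 0.046). Skeletal muscle markers, 9 of 10 with a probe set, did not separate the strains, with 4 differences positive and 5 negative (median −0.03). Within that list 2 probe sets of the myosin Myh1 were higher in BN (limma adjusted p = 0.00521 and 0.0131), though its brightest did not pass. Kcnma1, Kcnj8 and Kcnq1 had the negative sign of the fibroblast list, opposite to the Schwann cell and smooth muscle lists. Kcna5 and Kcnk3 had the positive sign of the Schwann cell and smooth muscle lists, opposite to the fibroblast list. Since the lists had both signs, any channel shares its sign with some list. The part of these cell types in the channel differences was not tested.

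The smooth muscle markers had array means of −0.12 to 0.46 in BN and −0.44 to 0.18 in LOU, with 8 of 9 differences positive and none called. Endothelial markers, 8 of 10 with a probe set, had means of −0.51 to 0.35 in BN and −0.26 to 0.50 in LOU.

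Where a gene had several measured probe sets, they often disagreed. Of 22 genes with several probe sets, 8 had several measured ones, and in 4 of these (Kcnd2, Kcnj11, Kcnk3 and Kcnk6) all had the same sign. In Kcnip2, Kcnj3, Kcnj4 and Kcnj6 they did not. Of the 108 probe sets, 18 carry the suffix for several transcripts of 1 gene and 3 a suffix for possible binding to other genes. Members that lie next to each other in the RefSeq gene order did not differ together beyond the test. Kcna5 and its neighbour Kcna1 gave 0.44 and 0.83, the latter not measured, while Kcna2 and Kcna3 gave 0.02 and 0.12 and Kcnj6 and Kcnj15 0.13 and −0.23.

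Among 77 other genes of membrane potential and ion transport, 56 had a probe set. Each of them was represented by its brightest probe set, and 27 differences were positive and 29 negative. One gene passed, in the list of TRP, store-operated and chloride channels (15 genes with a probe set, median −0.21), the phospholipid scramblase and ion channel Ano6. Its signals of 534.9, 542.0, 638.5, 678.5 and 834.8 in BN and 1231, 1944, 1963, 1933 and 1560 in LOU did not overlap. It was 2.67-fold lower in BN (log2 −1.42, SE 0.18, limma adjusted p = 0.0064, n = 5 per strain).

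None of 15 voltage-gated calcium channel genes passed. The smooth muscle pore Cacna1c, through which potassium channels act on tone, gave 209.5 ± 24.1 (SD, n = 5) in BN and 193.3 ± 43.8 in LOU (log2 0.14, limma adjusted p = 0.769). Its partner Cacna2d1 differed by −0.50 (limma adjusted p = 0.409). The lists of partner subunits (8 genes), of calcium release channels (5), of the sodium pump and exchangers (10) and of gap junction proteins (3) held no gene that passed. Their median differences were 0.14, −0.14, 0.0028 and 0.03. Gap junction protein Gja1, which couples smooth muscle cells electrically, differed by 0.50 on its brightest probe set (limma adjusted p = 0.15). Its other probe sets gave 1.04 and −0.12 (limma adjusted p = 0.211 and 0.849).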

How the data were processed

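Total RNA of abdominal aorta was hybridised to 10 Affymetrix arrays, 1 per sample, with groups taken from the strain given for each sample. The deposited values are linear intensity per probe set, with a 2% trimmed mean of 200.05 to 200.06 on each array, up to 22219.9. Per the submitters' processing notes RMA was used, with no version given, but linear values scaled to a common trimmed mean are not what RMA writes. The program that made them is not given in the sources used here, so low signals and background are uncertain. Here log2 was computed first, with 4 signals of 0 set to 0.1. Probe sets were named from the platform annotation, updated to RefSeq by gene identifier (12748) or accession (2) and kept otherwise (33). Of 15866 probe sets without 57 controls, 12783 had 1 symbol, 312 several and 2771 none. Strains were compared with the R package limma (R 4.3.3, limma 3.58.1, functions lmFit then eBayes, BN minus LOU, no covariate, two-sided, Benjamini-Hochberg over 15866 probe sets, threshold 0.05). Intervals are 95% and unadjusted. On simulated data of this design the fit recovered 47.3% of log2 changes of 1 and 77.6% of changes of 2. The number of arrays limits the precision.

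The members and all lists were chosen with earlier results of these data known. Signals on every array are given for Kcnmb1, Kcnma1 and Kcnj8, for the 10 measured probe sets with the highest mean signal, for the 8 with the largest difference, for fixed channels of the vessel wall, and for any that passed or did not overlap. This named 28 probe sets of 21 genes. Some channels of the vessel wall were not analysed here. Alternatives changed the normalization, filters, variance model, weights, pairing, arrays used, treatment of low signals, probe sets per gene and background level.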

Additional observations from a re-analysis of the deposited data

Results flagged for a closer look

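In 5 of 46 groups of 5 arrays, taken over the measured probe sets with values given on every array, 1 array lay far from the other 4 on the log2 scale by Dixon's criterion, where chance gives about 1 in 20 groups. That rate does not hold here, since some probe sets were taken for their large strain difference, among them both Kcnj3 probe sets below. In the G protein-gated channel Kcnj3, BN array 5 gave 74.2 on 1 probe set, with the other BN arrays at 92.4 to 99.7. On another Kcnj3 probe set BN array 4 gave 9.8, with the other BN arrays at 60.6 to 100. On the same probe set LOU array 5 gave 163.1, with the other LOU arrays at 71.2 to 85.1. In the leak channel Kcnk3, LOU array 4 gave 4.6 on 1 of 3 probe sets, with the other LOU arrays at 32.6 to 72.5. In Kcnn4, LOU array 4 gave 13.7, with the other LOU arrays at 30.4 to 41.8.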

How the results depend on the processing

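No potassium channel probe set passed in any of the 20 alternative settings of the strain comparison, and the smallest adjusted p among them was 0.0547 (Kcnq1, without the dimmest 40% of probe sets). The median difference over the potassium channel probe sets was 0.04. Over the settings it ran from −0.03 to 0.12 (−0.01 to 0.12 with 1 array left out), each value within 0.10 of 0.04. Over all probe sets the count of 125 depended on the setting: 253 without the dimmest 40%, where fewer were tested, 242 with a variance trend, 204 with a pseudocount of 16 and 75 without BN array 3 and LOU array 1. Leaving out 1 array gave 63 to 127, below the count of 125 by over 1.5 times without BN array 2 (67), BN array 4 (79), LOU array 2 (65), LOU array 3 (63), LOU array 4 (75) or LOU array 5 (78). The cause was not tested. Measured potassium channel probe sets numbered 67 at the 90th percentile of the controls, 45 at the highest control after the one that stands out was dropped and 37 at a fixed signal of 50.

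Replicate numbers did not pair the arrays: the correlations of same-numbered deviations were 0.0147, 0.0012, −0.0453, −0.0172 and −0.0116. With the replicate number as a block 23 of all probe sets passed and 0 potassium channels.

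Among the alternative values for single probe sets 493 kept their sign and 44 did not. Centring on the median, which moved the median of all probe sets from −0.03 to 0.02, gave Kcnab1 0.03 and Kcnmb1 0.01, and quantile normalization gave Kcnab1 0.01. Array weights gave Kcna2 −0.01 and Kcnh3 −0.0032, a pseudocount of 16 gave Kcnn3 −0.01, and without BN array 3 and LOU array 1 Kcnmb4 gave −0.08 and an unmeasured Kcnma1 probe set −0.21. With 1 array left out the sign turned in Kcna2 (−0.07 to 0.16), Kcnab1 (−0.10 to 0.06), Kcnh3 (−0.06 to 0.10), Kcnmb1 (−0.17 to 0.03), Kcnmb4 (−0.14 to 0.66), Kcnn3 (−0.13 to 0.37), Kcnn4 (−0.09 to 0.31), 1 probe set each of Kcnk3 (−0.12 to 1.01) and Kcnk6 (−0.24 to 0.06), and the unmeasured probe sets of Kcnma1 (−0.28 to 0.55 and −0.39 to 0.07) and Kcnd3 (−0.23 to 0.56). The Kcnd3 probe set had no value with a floor of 32, since all its signals lay under it.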
